A study of Mus musculus with 7 samples.

Results

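The orexin and melanin-concentrating hormone (MCH) system of the lateral hypothalamus was followed through 8 genes: the peptide precursors Hcrt, Pmch, Qrfp and Npvf, the receptors Hcrtr1, Hcrtr2 and Mchr1, and the transcription factor Lhx9. Every probe set that the mouse430_2 annotation gives to 1 of these symbols and to no other was taken, which made 12 probe sets for 7 genes, of 45037 probe sets in all. Pmch, Hcrt, Npvf, Hcrtr1 and Hcrtr2 had 1 probe set each, Mchr1 had 3 and Lhx9 had 4. No probe set carried the symbol Qrfp, alone or with others, so that this gene was not analysed here.

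RNA came from whole hypothalami of mice at 3 months of age, with 1 Affymetrix array for each sample. The 3 knockout arrays were labelled Creb-PomcCre-/-, in which Cre driven from Pomc removes Creb, and the 4 others were labelled wild type. The labels give no further allele, do not say whether the wild-type mice carried Cre or floxed Creb, and do not say whether a sample held RNA of 1 or of several mice. The deletion was aimed at Pomc neurons of the arcuate nucleus and not at orexin or MCH neurons, while the tissue contained all of these. Pomc-driven Cre is known to act also in pituitary corticotrophs and, during development, in precursors of other hypothalamic neurons. Samples are numbered as biological replicates, and p-values measure the spread between them.

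Orexin neurons and MCH neurons are separate populations that lie side by side in the lateral hypothalamus and project through much of the brain. Hcrt encodes the precursor of both orexins, which sustain wakefulness and promote feeding, and loss of orexin signalling causes narcolepsy. Pmch encodes the precursor of MCH, which promotes feeding, weight gain and sleep. Neurons of both kinds receive input from the arcuate nucleus, where Pomc and Agrp neurons sense leptin and nutrients. The question put to these arrays was whether the genes of this second tier of the feeding circuit differ when Creb is removed from Pomc cells.

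The promoters of the system were read from RefSeq (GRCm38.p6), because the deleted factor binds DNA. CREB recognises the cyclic AMP response element TGACGTCA, and also its core TGACG. All 8 genes matched, with 10 windows of 250 bases before and 50 bases from an annotated start. On either strand, 0 of the 10 windows held TGACGTCA and 1 held TGACG, against 1.79% and 20.8% of the 32851 windows in the table, where the shorter motif also counts inside the longer. The TATA motif TATAAA, searched on the gene's strand, was in 3 of the 10 windows and in 8.32% of all windows. These 3 were the peptide genes Hcrt, Pmch and Npvf, where the motif began 33, 27 and 29 bases before the start. The 4 windows with a match are printed from 100 bases before the start to the start base, 5′ to 3′ on the gene's strand, with TATAAA in capitals in the peptide genes and CGTCA, the reverse complement of TGACG, in capitals in Hcrtr2. A match describes the letters of these windows only, and no binding was measured.
Hcrt, chr11:100762931-100763031, minus strand: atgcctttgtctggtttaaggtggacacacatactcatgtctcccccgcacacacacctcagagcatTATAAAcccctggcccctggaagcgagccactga
Pmch, chr10:88090972-88091072, plus strand: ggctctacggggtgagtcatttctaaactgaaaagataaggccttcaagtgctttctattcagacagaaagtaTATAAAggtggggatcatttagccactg
Npvf, chr6:50654445-50654545, minus strand: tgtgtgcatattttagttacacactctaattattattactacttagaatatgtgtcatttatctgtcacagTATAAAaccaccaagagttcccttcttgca
Hcrtr2, chr9:76323623-76323723, minus strand: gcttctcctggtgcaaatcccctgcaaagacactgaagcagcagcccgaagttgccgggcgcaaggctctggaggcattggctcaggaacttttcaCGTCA

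Some arrays stood apart from their group. The thalamus and habenula markers, scored as the median deviation of the 25 measured genes from their means over all arrays, stood at -0.29, -0.29 and 0.029 in knockout arrays 1 to 3, against -0.23, 0.79, -0.11 and 0.15 in wild-type arrays 1 to 4. The 22 measured meningeal markers scored -0.41, -0.33 and -0.35 in knockout arrays 1 to 3, against -0.36, 0.45, 1.18 and -0.32 in wild-type arrays 1 to 4. Wild-type array 2 had the highest thalamic score and wild-type array 3 the highest meningeal score. Of the thalamic genes 3 were higher and 22 lower in the knockout mean, the median difference being -0.35, or -0.12 without wild-type array 2. For the meningeal genes these counts were 2 and 20, and the median was -0.68, or -0.60 without that array. The deleted gene, Creb1, was measured by 6 probe sets, which differed by -0.11 to 0.18 between the genotypes and did not pass (limma, lowest adjusted p = 0.467). Whether these probes lie in the deleted part was not determined, and Pomc cells are a small fraction of the tissue, so that they do not check the labels. The oxytocin gene Oxt, read as a check of the tissue, was bright, at 12.24 to 12.69 in knockout arrays and 12.40 to 12.80 in wild-type arrays. Not all hypothalamic genes were bright, as Nkx2-1 and Rax lay below the median level of all probe sets. Array medians over all probe sets lay between 6.19 and 6.24 and correlations between arrays between 0.994 and 0.997.

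The peptide genes Hcrt, Npvf and Pmch had higher means in the knockout arrays, at 1.26, 1.72 and 1.09 times the wild-type level, and the differences did not pass the test over all probe sets. The receptors differed by 0.14 or less on the log2 scale in either direction, and Lhx9 was set apart by a single wild-type array. In the fit of all probe sets (limma, Benjamini-Hochberg adjustment, threshold 0.05), 0 of the 12 probe sets passed, where 3 of 45037 passed in all, or 0.00666%. That total became 16, 9 and 5 when knockout array 1, 2 or 3 was left out, and 46 and 12 when wild-type array 1 or 2 was, and it held 0 of the 12 probe sets each time. An unadjusted p under 0.05 was reached by 2 of the 12, Hcrt and Npvf, against 10.6% of all probe sets. Every knockout array lay above every wild-type array for 0 of the 12, against 6.02% of all probe sets.

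**Figure D1:**
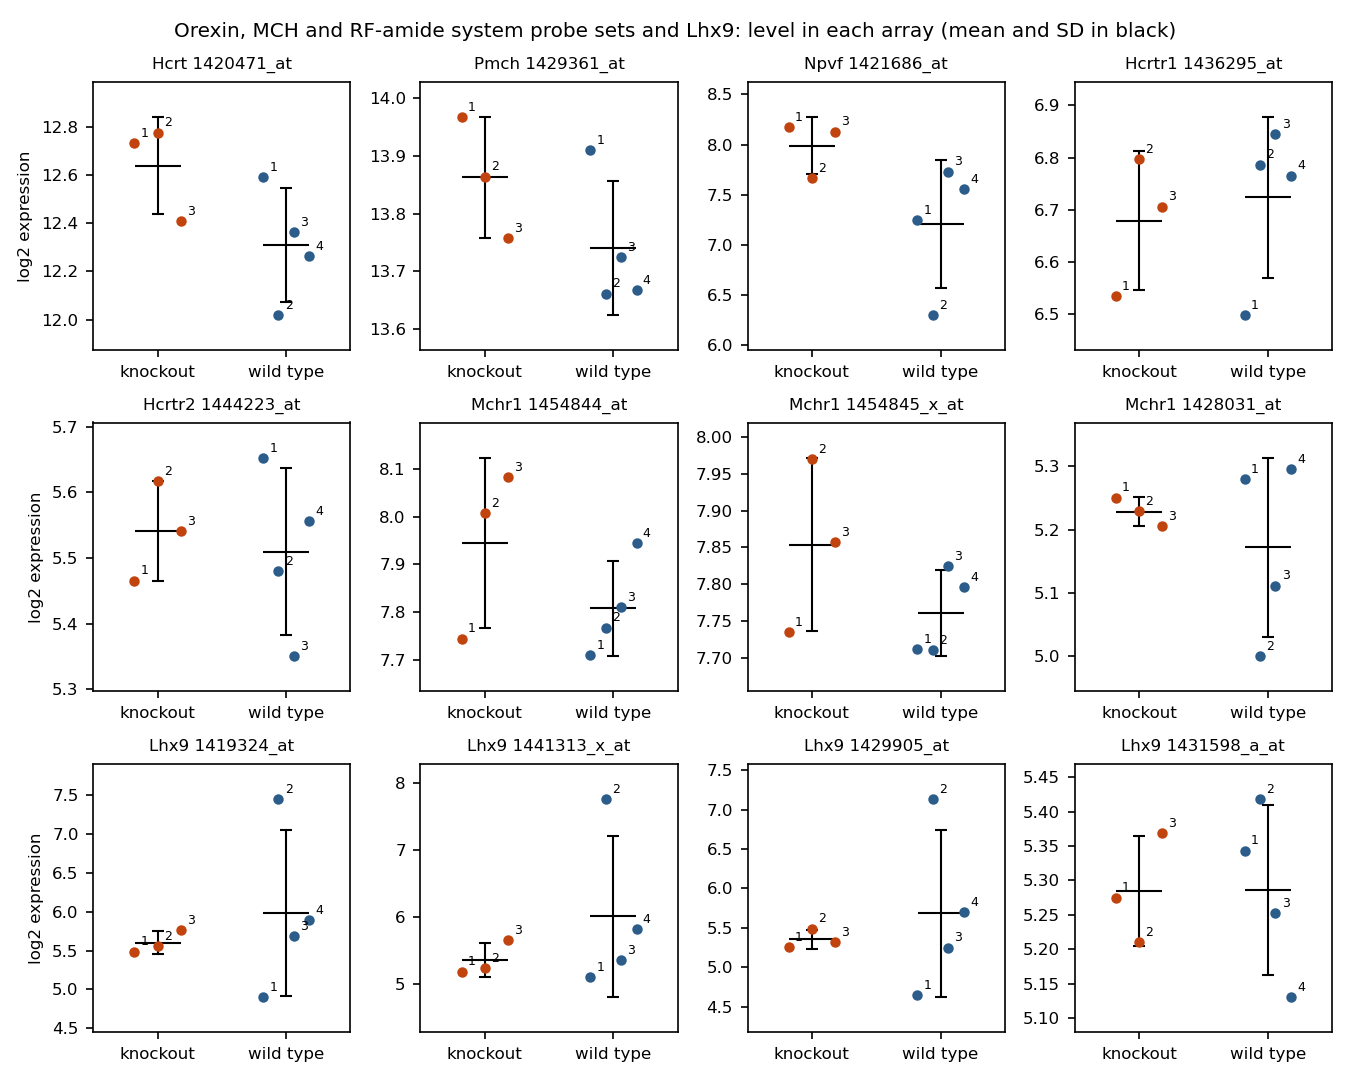
Deposited log2 expression of each of the 12 probe sets in the 3 knockout arrays (left, orange) and the 4 wild-type arrays (right, blue), with array numbers beside the points and the mean and SD in black. Each panel has its own axis, which does not start at 0. Wild-type array 2 was lowest for Hcrt, Pmch and Npvf and highest for 4 Lhx9 probe sets, and the groups overlapped in all 12 panels.

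Hcrt (probe set 1420471_at) read 12.73, 12.78 and 12.41 in knockout arrays 1, 2 and 3, against 12.59, 12.02, 12.36 and 12.26 in wild-type arrays 1, 2, 3 and 4 on the log2 scale. Knockout arrays 1 and 2 lay above all wild-type arrays, and knockout array 3 lay below wild-type array 1 only. The means were 12.64 ± 0.20 (SD, n = 3) in the knockout and 12.31 ± 0.24 (SD, n = 4) in wild type. The log2 difference, knockout minus wild type, was 0.33 ± 0.13 (SE), with a 95% interval of 0.039 to 0.62, and did not pass (limma, adjusted p = 0.426). Left-out arrays moved it between 0.23, with wild-type array 2 left out, and 0.44, with knockout array 3 left out. In whole tissue, more cells of a type and more RNA in each cell cannot be told apart.

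Pmch (1429361_at) was the brightest of the 12 probe sets, reading 13.97, 13.86 and 13.76 in knockout arrays 1 to 3, against 13.91, 13.66, 13.73 and 13.67 in wild-type arrays 1 to 4. As for Hcrt, wild-type array 1 was the only wild-type array inside the knockout range, and wild-type array 2 was the lowest of all. The means were 13.86 ± 0.10 (SD, n = 3) and 13.74 ± 0.12 (SD, n = 4) in knockout and wild type, a log2 difference of 0.12 ± 0.066 (SE) with a 95% interval of -0.027 to 0.27 (limma, adjusted p = 0.537). Without knockout array 1 the Pmch difference was 0.070.

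Npvf encodes the precursor of RF-amide related peptides, which restrain the gonadotropin axis and are made by neurons of the dorsomedial hypothalamus. Its probe set (1421686_at) read 8.18, 7.66 and 8.13 in knockout arrays 1 to 3, against 7.25, 6.30, 7.73 and 7.56 in wild-type arrays 1 to 4. Knockout arrays 1 and 3 exceeded all wild-type arrays, knockout array 2 lay just below wild-type array 3, and wild-type array 2 stood well below the rest. The log2 difference of 0.78 ± 0.30 (SE), between means of 7.99 ± 0.28 (SD, n = 3) in the knockout and 7.21 ± 0.64 (SD, n = 4) in wild type, was the largest of the 12 in size and had a 95% interval of 0.10 to 1.46 (limma, adjusted p = 0.423). Without wild-type array 2 it was 0.48, and without wild-type array 3 it was 0.96. The spread of Npvf within the groups was larger than that of 99.1% of all probe sets, and that of Hcrt larger than 93.4%, whereas Pmch stood at 57.9%.

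The labels give no sex, so Xist and 3 Y-linked transcripts were used to assign it. Knockout array 1 and wild-type arrays 1 and 4 read as female, and the other 4 arrays as male. Set against wild type of the same sex, every knockout array lay above every wild-type array for Hcrt and for Pmch, a pattern found in 10.9% of all probe sets. The Hcrt difference was 0.30 in female arrays, with a single knockout array, and 0.40 in male arrays, and the Pmch difference was 0.18 and 0.12. For Npvf the differences were 0.78 and 0.88, with an overlap in males, where knockout array 2 read 7.66 and wild-type array 3 read 7.73. With sex as a covariate the differences of Hcrt, Pmch and Npvf were 0.36, 0.14 and 0.84 and did not pass.

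**Figure D2:**
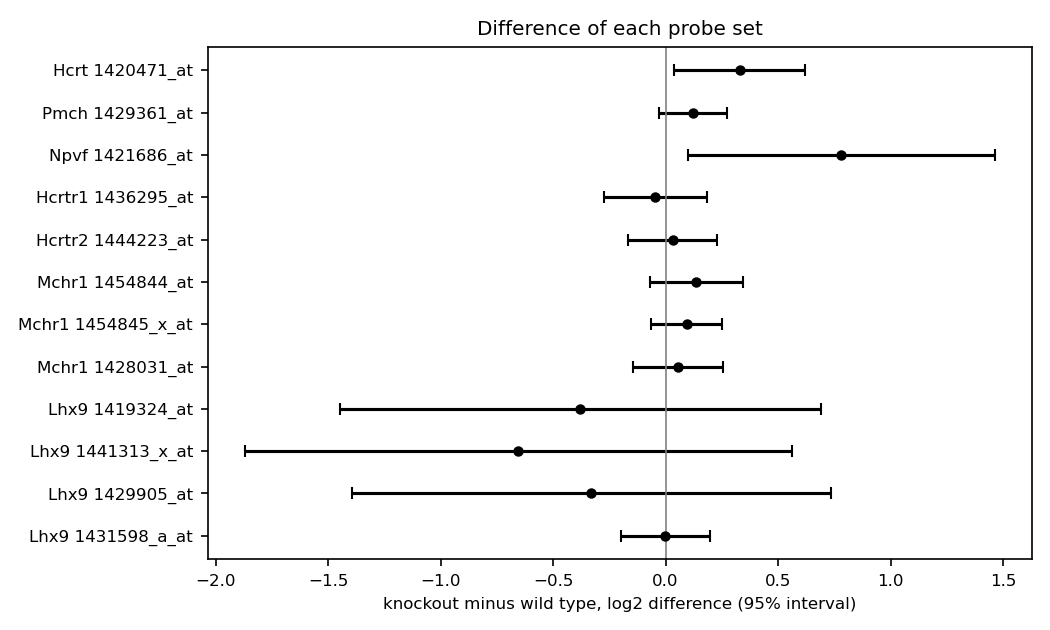
Knockout minus wild-type log2 difference of each probe set with its 95% interval from limma over 3 knockout and 4 wild-type arrays. The intervals of Hcrt (0.039 to 0.62) and Npvf (0.10 to 1.46) lay above 0 before adjustment, those of the other 10 probe sets included 0, and the 3 widest belonged to Lhx9.

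The orexin receptors did not differ detectably. Hcrtr1 encodes the receptor that prefers orexin A and is prominent in the noradrenergic locus coeruleus. Its probe set (1436295_at) read 6.53, 6.80 and 6.71 in knockout arrays 1 to 3, against 6.50, 6.79, 6.84 and 6.77 in wild-type arrays 1 to 4, so that array 1 was the lowest in each genotype. The difference was -0.045 ± 0.10 (SE), with a 95% interval of -0.27 to 0.18 (limma, adjusted p = 0.899). Hcrtr2 encodes the receptor that binds both orexins and drives the histamine neurons of the tuberomammillary nucleus. Its probe set (1444223_at) was dim, at 5.47, 5.62 and 5.54 in knockout arrays 1 to 3, against 5.65, 5.48, 5.35 and 5.56 in wild-type arrays 1 to 4. The Hcrtr2 difference was 0.031 ± 0.088 (SE), with a 95% interval of -0.17 to 0.23 (limma, adjusted p = 0.923). The values have no detection call, and a level below 6.22, the median of all probe sets, may not be above background.

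Mchr1 encodes the MCH receptor of the mouse, which lowers cyclic AMP and sits on neuronal cilia. Its brightest probe set (1454844_at) read 7.75, 8.01 and 8.08 in knockout arrays 1 to 3, against 7.71, 7.77, 7.81 and 7.94 in wild-type arrays 1 to 4. Knockout arrays 2 and 3 were above all wild-type arrays and knockout array 1 was below all but wild-type array 1. The Mchr1 difference was 0.14 ± 0.092 (SE), with a 95% interval of -0.070 to 0.34 (limma, adjusted p = 0.618), and it was 0.24 when knockout array 1 was left out and 0.068 when knockout array 3 was. A second probe set annotated with the same accession (1454845_x_at) differed by 0.093 ± 0.070 (SE), or 0.15 with knockout array 1 left out and 0.035 with knockout array 2 left out. The dim 1428031_at differed by 0.056 ± 0.089 (SE). All 3 Mchr1 probe sets were thus higher in the knockout mean, and 0 passed. Within sexes the direction was not shared: 1454844_at differed by -0.083 in female arrays and 0.26 in male arrays, and 1454845_x_at by -0.019 and 0.15.

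Lhx9, a LIM homeodomain factor that promotes the orexin neuron fate, showed the widest spread. Its 4 probe sets had mean levels below 6.22, the median of all probe sets. Their readings outside wild-type array 2, all below 6.22, may not be above background. Probe set 1441313_x_at read 5.19, 5.24 and 5.66 in knockout arrays 1 to 3, against 5.11, 7.76, 5.36 and 5.83 in wild-type arrays 1 to 4. Wild-type array 2 lay far above the other 6 arrays, which ran from 5.11 to 5.83. Probe set 1419324_at gave the same picture, with 7.45 in wild-type array 2 and 4.91 to 5.89 elsewhere, and so did 1429905_at, with 7.13 in that array and 4.65 to 5.70 elsewhere. Probe set 1431598_a_at stayed between 5.13 and 5.42 in all arrays, again with wild-type array 2 highest. The differences of the first 3 were -0.65 ± 0.54 (SE), -0.38 ± 0.47 (SE) and -0.33 ± 0.47 (SE), and that of 1431598_a_at was -0.0016 ± 0.088 (SE), with adjusted p-values from 0.687 to 0.995 (limma). Without wild-type array 2 they were -0.072, 0.11, 0.15 and 0.042. Within the groups, the first 3 spread more than 99.8%, 99.7% and 99.7% of all probe sets.

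Lhx9 followed the thalamic markers across arrays at both ends of wild type, with array 2 highest and array 1 lowest for 1419324_at as for the thalamic score. The reading at the low end, 4.91, may be background. Gbx2, a factor of the developing thalamus that was chosen after its values were seen, read 5.22, 5.15 and 6.23 in knockout arrays 1 to 3, against 4.53, 8.33, 5.68 and 6.46 in wild-type arrays 1 to 4. Other genes of the thalamus and habenula list went the other way, with Pou4f1 and Nrgn lowest in wild-type array 2. Lhx9 is itself expressed in the thalamus. The part of thalamic tissue in the values of Lhx9, and in the low Hcrt, Pmch and Npvf of the same array, was not tested.

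**Figure D3:**
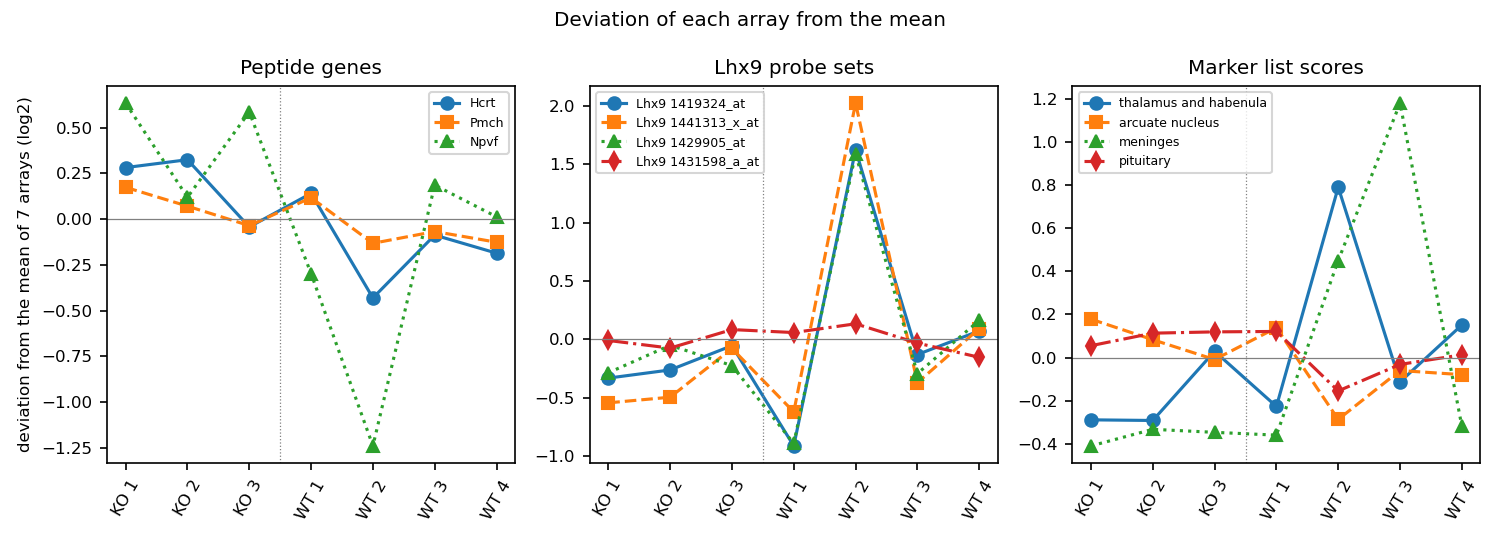
Deviation of each array from the mean of all 7 arrays (log2) for Hcrt, Pmch and Npvf (left), for the 4 Lhx9 probe sets (centre) and for the scores of 4 marker lists (right), with the 3 knockout arrays (KO) left of the 4 wild-type arrays (WT). In wild-type array 2 the peptide genes and the arcuate score were lowest, and the 4 Lhx9 probe sets and the thalamic score were highest.

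Other regional lists are given for the same arrays. The 18 arcuate nucleus markers scored 0.18, 0.083 and -0.0092 in knockout arrays 1 to 3, against 0.14, -0.29, -0.060 and -0.079 in wild-type arrays 1 to 4, and 17 of them were higher in the knockout mean, where 51.5% of all genes were. Without wild-type array 2 this count was 13 of 18. Wild-type array 1 was the only wild-type array with a positive arcuate score, as it was the only one within the knockout range for Hcrt and Pmch. For Npvf, however, wild-type array 1 (7.25) lay below wild-type arrays 3 and 4 (7.73 and 7.56). Knockout array 3, with a negative arcuate score, read 8.13 for Npvf. The part of arcuate tissue in the peptide values was not tested. The arcuate median difference was 0.15, and 0.074 without wild-type array 2, against 0.0036 over all 18193 genes. The 17 dorsomedial nucleus and zona incerta markers, from the region of Npvf neurons, had a median of 0.041, with 10 higher and 7 lower, and without wild-type array 2 the median was -0.041, with 7 higher and 10 lower. Their smallest unadjusted p-values belonged to the orphan receptor gene Gpr50, Pax6 and Nos1, with log2 differences of 0.50, 0.21 and -0.15. Other probe sets went the other way, up to 0.11 for Nos1 and down to -0.0092 for Pax6. Among the regional lists 0 genes passed over all genes tested (limma), where 2 of 18193, or 0.0110%, passed in all.

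The scores of the neuron, astrocyte, microglia, endothelium and choroid plexus lists stayed between -0.14 and 0.084 in all 7 arrays. Within that range, neuron scores were lower in each knockout array (-0.0245, -0.0261 and -0.0394) than in wild-type arrays 1 to 4 (0.0025, 0.083, -0.010 and 0.031). Oligodendrocyte scores ran from -0.22 to 0.12 in knockout arrays and from -0.23 to 0.18 in wild-type arrays, and pituitary scores from 0.055 to 0.12 and from -0.16 to 0.12. The 11 pituitary genes, 8 higher and 3 lower, include Oxt, read above as a hypothalamic gene, and Avp. Their score is therefore not one of pituitary tissue alone. Tshb read 7.62, 6.78 and 7.94 in knockout arrays 1 to 3, against 7.54, 5.37, 4.64 and 4.98 in wild-type arrays 1 to 4. It differed by 1.815 ± 0.62 (SE) and did not pass (limma, adjusted p = 0.343). The blood score was 0.87 in knockout array 2 and between -0.27 and -0.095 in the others. Median differences were -0.054 for neurons, 0.012 for astrocytes, 0.0067 for oligodendrocytes, -0.086 for microglia, -0.10 for endothelium, 0.435 for blood, -0.10 for choroid plexus and 0.055 for pituitary. Without wild-type array 2 the medians were -0.030 for neurons, 0.0050 for astrocytes, -0.033 for oligodendrocytes and 0.00017 for pituitary. The part of these in the values of the lateral hypothalamic genes was not tested.

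Genes listed for orexin or MCH neurons did not move as a block. Some of them are also in the arcuate or dorsomedial lists, so that the list is not particular to these neurons. Of 20 measured, 12 were higher and 8 lower in the knockout, with a median of 0.028, and 10 and 10 with a median of -0.011 without wild-type array 2. An unadjusted p under 0.05 was reached by 2 of the 20, against 11.7% of all genes, and by 0 of the 20 without wild-type array 2, and 0 passed. Tacr3, the neurokinin B receptor found in MCH neurons, differed by 0.14 ± 0.060 (SE), and Pdyn, the dynorphin precursor that orexin neurons release with orexin, by 0.31 ± 0.13 (SE). Pdyn read 8.04, 8.18 and 7.71 in knockout arrays 1 to 3, against 7.87, 7.45, 7.81 and 7.55 in wild-type arrays 1 to 4, again with wild-type array 2 lowest. Gad2, an enzyme of GABA synthesis, differed by -0.085, and its other probe set by 0.023.

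Factors that pattern the tuberal and lateral hypothalamus included 28 measured genes, with a median of 0.059. Of these, 19 were higher and 9 lower. An unadjusted p under 0.05 was reached by 5 of the 28, against 11.7% of all genes, and by 3 of the 28 without wild-type array 2, against 9.40%. Foxb1, a forkhead factor of the mammillary region, differed by 0.25 ± 0.076 (SE), Rax, which specifies the ventral hypothalamus, by 0.25 ± 0.092 (SE), and Nkx2-1 by 0.18 ± 0.069 (SE). For each of these 3 genes the knockout arrays were the higher ones without overlap, as for 6.09% of all genes, at levels below the median of all probe sets, and 0 of the 28 passed (limma, lowest adjusted p = 0.308). Without wild-type array 2 the list had 14 higher and 14 lower, with a median of -0.0012. Lhx8, a relative of Lhx9 in this list, was named after its values were seen. It read 5.17, 4.93 and 4.80 in knockout arrays 1 to 3, against 5.34, 8.39, 6.96 and 5.13 in wild-type arrays 1 to 4, so that wild-type array 3 was also high for this gene while it was not for Lhx9.

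The machinery shared by the peptides and their receptors was read from further lists. Orexin receptors signal mainly through Gq and phospholipase C, and the MCH receptor through Gi and Gq. Receptor signalling was covered by 25 genes with a median of -0.027, of which 8 were higher, 17 were lower and 0 passed (limma, lowest adjusted p = 0.221). An unadjusted p under 0.05 was reached by 8 of the 25, against 11.7% of all genes, and by 5 of the 25 without wild-type array 2, against 9.40% of all genes. The median without that array was -0.042. Slc8a1, the sodium-calcium exchanger that carries current in orexin-excited neurons, differed by -0.16 ± 0.035 (SE), Gnaq, the alpha subunit of Gq, by -0.098 ± 0.031 (SE), and Gnao1, that of Go, by -0.12 ± 0.037 (SE). For these 3 genes all knockout arrays lay below all wild-type arrays in the probe set used, as for 6.05% of all genes, and other probe sets of each went the other way, up to 0.12, 0.11 and 0.086. Of the 19 neuron markers 15 were also lower and 4 higher, where 51.5% of all genes were higher. For 6 of the 19 all knockout arrays lay below all wild-type arrays in the probe set used. Among these 6, only Snap25 had a probe set that went the other way, at 0.060. The part of the neuron markers in these values was not tested. The 11 genes of peptide processing had a median of -0.0095, with 5 higher and 6 lower, and a median of -0.046 without wild-type array 2. Among them Cadps2, a factor of dense-core vesicle release, differed by -0.19, the amidating enzyme gene Pam, which completes orexins and RF-amide peptides, by -0.099, and the prohormone convertase gene Pcsk1 by 0.27, and 0 of the 11 passed. Pcsk1 was again lowest in wild-type array 2, at 7.51, where the other 6 arrays were higher.

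The receptor of the Qrfp peptide was measured although its ligand was not. Qrfpr read 7.98, 7.86 and 7.91 in knockout arrays 1 to 3, against 7.97, 7.44, 7.65 and 7.82 in wild-type arrays 1 to 4, a difference of 0.20 ± 0.11 (SE) (limma, adjusted p = 0.517). The groups overlapped through wild-type array 1. The other 3 measured RF-amide genes differed by 0.034, for Npff, down to -0.017, for the kisspeptin receptor gene Kiss1r, and the 4 had a median of 0.012. In the histamine system, a main target of orexin through Hcrtr2, the median of 8 genes was 0.080. Of these, 6 were higher, where 51.5% of all genes were, 2 were lower and 0 passed. The receptor gene Hrh1 differed by 0.097 ± 0.046 (SE), the histamine-synthesising enzyme gene Hdc by 0.15 ± 0.087 (SE) and the inactivating enzyme gene Hnmt by 0.063 ± 0.039 (SE). For Hrh1 and Hnmt the lowest knockout array exceeded the highest wild-type array, as for 6.09% of all genes. The other probe set of Hrh1 differed by -0.037.

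Genes most like Hcrt, Pmch and Npvf over the 7 arrays were looked up among genes above the median level, by Pearson correlation and as a description only. The arrays share a dissection and a normalization, and with 7 points many genes come close: 103 genes had a correlation above 0.9 with Hcrt, 134 with Pmch and 70 with Npvf, of 8902 or 8903. The 4 nearest to Hcrt were Thoc3, Arl2, Cdh9 and Cr1l, of which Thoc3 correlated at 0.987 and Arl2 at 0.978. Those nearest to Pmch were U2af1l4, Insyn2a, Tmed10 and Zfp334, from 0.983 to 0.970. Npvf was followed by Med10 at 0.995, Grpel1 at 0.985, Fahd2a at 0.978 and Nxt1 at 0.975. These genes varied far less than Npvf itself: Med10 read 10.25, 10.16 and 10.23 in knockout arrays 1 to 3, against 10.11, 9.99, 10.18 and 10.16 in wild-type arrays 1 to 4.

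**Figure D4:**
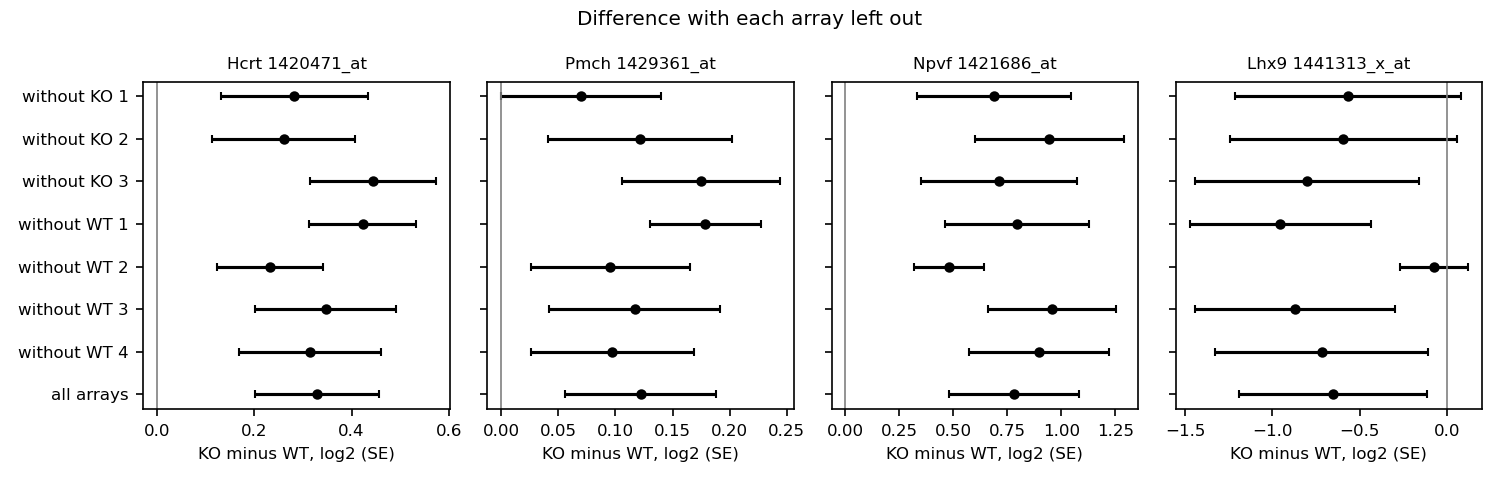
Knockout minus wild-type log2 difference (point) and limma SE (bar) of Hcrt, Pmch, Npvf and Lhx9 1441313_x_at with each array left out in turn and with all arrays at the bottom. Hcrt, Pmch and Npvf stayed above 0 throughout, Npvf was smallest (0.48) without wild-type array 2, and Lhx9 moved to -0.072 without that array.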

How the data were processed

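Values are log2 expression per probe set as the authors deposited them. Per the submitters' processing notes, the software was R 2.10.0 with affy and RMA; order and settings are not given in the sources used here. RMA usually equalises intensity distributions between arrays, so a difference in total signal would be removed, and gives no detection call. The number of arrays limits the precision, with a median standard error of 0.079 over probe sets.

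Of 45101 probe sets, 64 controls were left out. Symbols come from GEO's platform annotation: 34945 probe sets had 1 symbol, 932 several and 9160 none. All 45037 probe sets were fitted with limma 3.58.1 in R 4.3.3 (lmFit, eBayes with an intensity trend, two-sided, Benjamini-Hochberg adjustment over the whole table, threshold 0.05). Gene lists were read from a separate fit with the same settings over 18193 genes, each by its brightest probe set and adjusted over these genes. They were described by counts and medians with no set test. The probe-set fit was run on simulated data with independent noise in each value. Those data held no deviations shared across an array, so that such deviations were not covered.

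The members and lists were chosen with earlier results of these data known. Named genes are the members, up to 3 genes per list with the smallest unadjusted p, and the 4 genes most correlated with Hcrt, Pmch and Npvf, leaving out clone and prediction symbols. Outside this rule, Creb1 and Oxt were read as checks of the deletion and the tissue. Gbx2 and Lhx8 were added after their values were seen, as were Avp, Snap25, Pou4f1 and Nrgn. Marker lists covered thalamus and habenula, meninges, arcuate nucleus, dorsomedial nucleus and zona incerta, neurons, astrocytes, oligodendrocytes, microglia, endothelium, blood, choroid plexus and pituitary. Python 3.11.15 and matplotlib 3.10.9 made the figures.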

Additional observations from a re-analysis of the deposited data

Results flagged for a closer look

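Arrays of the 2 sexes, read from Xist and Y-linked transcripts, went opposite ways for 2 of the 12 probe sets. For Hcrtr2 1444223_at, the female knockout array (5.47) lay below both female wild-type arrays (5.65 and 5.56), and both male knockout arrays (5.62 and 5.54) lay above both male wild-type arrays (5.48 and 5.35). The knockout minus wild-type difference was larger in males than in females by 0.30 ± 0.16 (SE), which did not pass as a genotype by sex term (limma, adjusted p = 1). For Mchr1 1428031_at, the female knockout array read 5.25, against 5.28 and 5.30 in female wild-type arrays, and male knockout arrays read 5.23 and 5.21, against 5.001 and 5.11 in male wild-type arrays. That difference between the sexes was 0.20 ± 0.15 (SE) (limma, adjusted p = 1). The same opposite pattern was found in 9.05% of all probe sets, and 0 of 45037 passed the genotype by sex term (limma), with 1789 at an unadjusted p under 0.05. Both probe sets were dim, and a single female knockout array carries the female value.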

How the results depend on the processing

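Under every alternative tried, 0 of the 12 probe sets passed the threshold. Hcrt, Pmch and Npvf were higher in the knockout under each of them. The count over all probe sets was 3, and became 5 with sex as a covariate, 17 at an adjusted p under 0.1, and 3 to 46 with single arrays left out. With single arrays left out, the differences whose sign turned ran from -0.12 to 0.027 for Hcrtr1, from -0.022 to 0.079 for Hcrtr2, from -0.00064 to 0.098 for Mchr1 1428031_at, and from -0.74 to 0.11, -0.67 to 0.15 and -0.053 to 0.042 for Lhx9 1419324_at, 1429905_at and 1431598_a_at. Lhx9 1431598_a_at also turned with array weights (0.015). Without wild-type arrays 2 and 3, an alternative chosen after seeing the data, Hcrtr1 (0.047), Hcrtr2 (-0.063), Mchr1 1428031_at (-0.059) and Lhx9 1419324_at (0.20), 1429905_at (0.18) and 1431598_a_at (0.048) turned sign, and Hcrt, Pmch and Npvf were at 0.21, 0.074 and 0.59. The cause was not tested. Values within each sex, the genotype by sex term and the lists without wild-type array 2 were also chosen after seeing the data.

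Replicate numbers are shared by the genotypes, and same-numbered arrays deviated together with correlations of 0.28, 0.093 and 0.17, each best with its own number, which is a hint from the data and not from the design. In both genotypes the array numbered 1 read as female and those numbered 2 and 3 as male. For number 1, replicate and sex therefore cannot be told apart. With the replicate number as a replicate block over the arrays numbered 1 to 3, 2 probe sets passed, 0 of them among the 12, and Hcrt, Pmch and Npvf were at 0.31, 0.097 and 0.90. The block changed the call of none of the 12 probe sets. Probe sets below the median level (Hcrtr2, Lhx9 and 1428031_at of Mchr1) have no value with dim probe sets dropped.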
